A study of Homo sapiens with 2 samples.

Results

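The *MAGEA* genes are cancer-testis genes on the long arm of chromosome X. They are expressed in male germ cells, are silent in most other adult tissues, and are switched on in many cancers, where peptides of their proteins can be presented by MHC class I molecules to cytotoxic T cells. Their promoters are rich in CpG sites and are a textbook case of genes held silent by DNA methylation. The encoded proteins share a MAGE homology domain, through which type I and type II MAGE proteins bind and steer RING-type ubiquitin ligases. The members described here were the 10 genes named *MAGEA1*, *MAGEA2*, *MAGEA2B*, *MAGEA3*, *MAGEA4*, *MAGEA6*, *MAGEA9*, *MAGEA10*, *MAGEA11*, and *MAGEA12* in both count tables, out of 33538 genes.

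Single-cell RNA sequencing was performed on HCT116, an established human colorectal cancer cell line. Cells received 0.5 μM decitabine (5-aza-2′-deoxycytidine, DAC), a cytidine analog that traps DNA methyltransferases and so lowers DNA methylation, on days 1 and 3, or were mock-treated, with fresh medium on day 5 and harvest on day 7. The treatment text deposited for both samples is the same and names DAC, so samples were grouped by the treatment label that each carries. Each condition was 1 library, so the differences below have no replicate check, no test was made, and intervals (95%, exact) cover counting error only. The mock-treated library held 1783 cells with 49911689 UMIs (unique molecular identifiers, each standing for 1 captured RNA molecule) and a median of 27899 per cell. The DAC-treated library held 1751 cells with 59046165 UMIs and a median of 35340. In 395 mock-treated and 458 DAC-treated cells the total was under 10000 UMIs, and in 607 and 775 cells more than 20% of UMIs were mitochondrial. All 7 epithelial marker genes were detected in both libraries, and their median log2 ratio of CPM (UMIs scaled to a total of 1000000 in the library) was -0.13. The keratin genes *KRT18* and *KRT8* were 2.11-fold and 1.73-fold higher with DAC, while *ELF3*, *CLDN7*, *EPCAM*, and *CDH1* were at 0.289, 0.472, 0.636, and 0.916-fold. Immune markers summed to 17 and 95 UMIs, endothelial markers to 6 and 113 UMIs, and fibroblast markers to 533 and 1157 UMIs, nearly all of them from *COL1A1* (533 and 1112). Germ cell markers rose from 24 to 2820 UMIs, of which *SYCP3*, *DAZL*, and *DDX4* held 1765, 976, and 78 in DAC-treated cells, while the sperm genes *TNP1* and *PRM1* had 0 UMIs in both libraries.

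The sequences before the transcription start sites are shown because they allow members that share a promoter sequence to be set beside what those members did. The RefSeq table (GRCh38.p14) held 14 windows, from 250 bases before to 50 bases after a start, for 8 of the members. Below are stretches of these windows that lie before the start and hold no annotated coding or untranslated base, each written 5′ to 3′ along the strand of the member. Capitals mark GGATGTGAC, the longest run of letters found in at least 1 window of every matched member.
MAGEA3, chrX:152698544-152698766, plus strand, and MAGEA6, chrX:152769717-152769939, minus strand: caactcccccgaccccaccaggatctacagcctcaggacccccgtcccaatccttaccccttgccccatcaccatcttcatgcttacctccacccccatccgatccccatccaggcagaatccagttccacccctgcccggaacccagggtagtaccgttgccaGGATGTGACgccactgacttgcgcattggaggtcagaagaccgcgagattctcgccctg
MAGEA12, chrX:152733736-152733756, plus strand: cacggggccGGATGTGACgcc
MAGEA4, chrX:151912224-151912473, plus strand: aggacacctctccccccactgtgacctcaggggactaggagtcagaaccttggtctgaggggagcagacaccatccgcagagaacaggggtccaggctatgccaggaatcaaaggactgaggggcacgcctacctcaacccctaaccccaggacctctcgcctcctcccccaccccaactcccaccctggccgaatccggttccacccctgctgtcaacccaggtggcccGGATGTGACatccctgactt
MAGEA9, chrX:149781680-149781929, plus strand: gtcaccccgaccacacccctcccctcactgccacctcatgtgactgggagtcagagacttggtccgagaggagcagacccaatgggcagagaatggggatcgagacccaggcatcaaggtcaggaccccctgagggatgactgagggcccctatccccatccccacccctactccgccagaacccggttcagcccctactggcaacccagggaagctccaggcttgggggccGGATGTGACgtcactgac

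The windows of *MAGEA3* and *MAGEA6* were identical over all 300 bases, as were windows of *MAGEA2* and *MAGEA2B*. The stretch of 21 bases shown for *MAGEA12* is the whole interval between its start and that of *CSAG1*, a cancer-testis gene transcribed in the opposite direction. The run GGATGTGAC was present, on either strand, in 10 of the 14 member windows and in 0.302% of all 35116 windows in the table. The letters CCGGAT, a core of ETS factor motifs, overlap that run in GGAT where CC stands before it. In the stretch shown for *MAGEA3* and *MAGEA6*, CA stands before it instead. CCGGAT was present on either strand, at any place, in 12 of 14 member windows and in 7.12% of all windows. Member windows held 9 to 21 CpG sites, against a median of 14 over all windows. These matches describe letters and were not tested as binding sites, and DNA methylation was not measured in these libraries.

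In mock-treated cells, 5 of the 10 members had a UMI, as did 63% of all 33538 genes, and 1 of the 5, *MAGEA3*, held 99.5% of the 2790 UMIs of the family. In DAC-treated cells all 10 members were detected, and the family had 18538 UMIs, or 0.0314% of all UMIs against 0.00559% in mock-treated cells, a ratio of 5.62 (5.40 to 5.85). Without *MAGEA3*, the other 9 members together went from 14 to 13154 UMIs, a ratio of 794 (473 to 1453). Of the 8 members with 20 UMIs or more in a library, 7 were higher with DAC by 4-fold or more, and 12.5% of the 16573 genes with that many UMIs were. All 7 had 0 to 2 UMIs in mock-treated cells and reached 20 only in DAC-treated cells. For such genes the minimum itself fixes a ratio above 4, so this count and the median below are descriptions. None of the 8 was at most 0.25-fold, as 1.51% of the genes were. The median log2 ratio of these 8 members was 7.91, with members without a UMI in mock-treated cells set at their lower bound, and that of all genes tested was 0.30. Of 8 members with 20 UMIs or more in DAC-treated cells, 5 had 0 UMIs in mock-treated cells, against 4.44% of 16250 such genes.

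**Figure D1:**
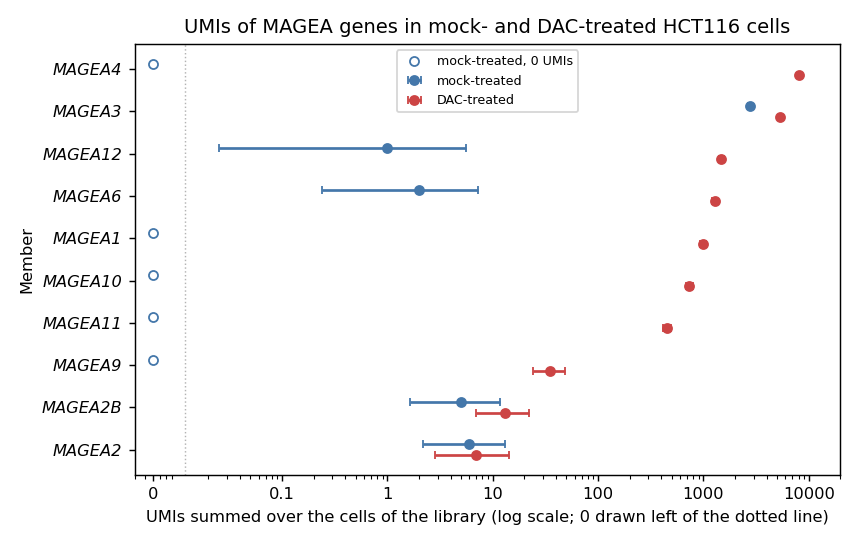
UMIs of each member summed over the library (log scale) in mock-treated (blue) and DAC-treated (red) cells, 1 library each, with exact Poisson 95% intervals for counts above 0. *MAGEA3* is the only member with more than 6 UMIs in mock-treated cells, and *MAGEA4* has the most UMIs (8160) in DAC-treated cells.

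*MAGEA4* encodes an antigen used as a target of engineered T cells, and its protein binds the DNA damage ubiquitin ligase RAD18. It lies at 151912495 to 151925171 of chromosome X (hg38, plus strand). No UMI of it was found in the 1783 mock-treated cells, which allows up to 0.207% of cells with a captured UMI and sets no limit on cells that express the gene, and 8160 were found with DAC, at least 2299-fold higher. These 8160 UMIs, 44.02% of those of the family, were in 802 cells, or 45.8% (43.4 to 48.2) of the DAC-treated cells. A positive cell held 10.2 UMIs on average, with a counting interval of 9.95 to 10.4 that leaves out the spread among cells. The median was 4 and the highest count 87. The spread among positive cells was wide. In 279 of them there was 1 UMI, in 284 there were 10 or more, and the 10% of positive cells with the most *MAGEA4* UMIs held 39.96% of the total.

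*MAGEA3* encodes a long-studied vaccine antigen, and MAGE-A3 and MAGE-A6 proteins bind the ligase TRIM28. The gene lies at 152698767 to 152702347 of chromosome X (plus strand). It was the member already expressed without DAC, with 2776 UMIs in 1125 mock-treated cells, or 63.1% (60.8 to 65.3) of them. In DAC-treated cells it had 5384 UMIs in 1202 cells, or 68.6% (66.4 to 70.8). Its level rose from 55.6 to 91.2 CPM, a ratio of 1.64 (1.57 to 1.72), or 0.71 on the log2 scale. When the libraries were scaled by the median of gene ratios instead of by their totals, which shifted every gene by -0.24, its log2 ratio was 0.47. Positive cells held 2.47 UMIs on average in the mock-treated and 4.48 in the DAC-treated library, and cells with 3 UMIs or more numbered 440 and 805. To compare shares at equal depth, every cell was thinned to 10000 UMIs, and the 395 and 458 cells below that depth were set aside. *MAGEA3* was then detected in 41.3% (38.7 to 43.9) of 1388 mock-treated and 53.7% (50.9 to 56.4) of 1293 DAC-treated cells.

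*MAGEA6* lies 63.8 kb from *MAGEA3*, at 152766136 to 152769716 on the minus strand, with the same letters over the window shown above. Mock-treated cells held 2 UMIs of it, where *MAGEA3* had 2776. With DAC it had 1278 UMIs in 352 cells, or 20.1% (18.2 to 22.1), a ratio of 540 (149 to 4465). Reads of this pair can be told apart only in part. The last 400 bases of their canonical transcripts differed at 2 positions, and 69.8% of the 90-base stretches of each occurred in the other as well, so UMIs from such stretches could be dropped or misassigned and the levels of both are uncertain. The read length is not given in the sources used here.

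*MAGEA12*, another antigen recognized by T cells, lies at 152733757 to 152737669 on the plus strand. Without DAC it had 1 UMI, and with DAC 1477 UMIs in 442 cells, or 25.2% (23.2 to 27.3), a ratio of 1249 (224 to 49346). *CSAG1*, whose annotated start is 22 bp away, was already present in mock-treated cells with 463 UMIs in 386 cells. In DAC-treated cells *CSAG1* had 1107 UMIs in 551 cells, a ratio of 2.02 (1.81 to 2.26). Both neighbors of this head-to-head pair were therefore higher with DAC, from mock-treated levels of 1 UMI and 463 UMIs. Of the other genes of the *CSAG* family, *CSAG2* had 2 and 4 UMIs and *CSAG3* had 60 and 44 UMIs, but every 90-base stretch at the ends of their transcripts occurs in both, and the split between them is uncertain.

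*MAGEA1*, *MAGEA10*, and *MAGEA11* had 0 UMIs in mock-treated cells. *MAGEA1*, the founding member of the family as a T cell antigen, had 994 UMIs in 290 DAC-treated cells, or 16.6% (14.8 to 18.4), at least 280-fold higher. *MAGEA10*, also a T cell antigen, had 738 UMIs in 232 cells, or 13.2% (11.7 to 14.9), at least 208-fold higher. *MAGEA11*, whose product is a transcriptional coregulator, had 452 UMIs in 227 cells, or 13.0% (11.4 to 14.6), at least 127-fold higher. *MAGEA11* was thus found in nearly as many cells as *MAGEA10* but at a lower level in each, with 1.99 UMIs per positive cell and 52 cells with 3 UMIs or more, against 3.18 UMIs and 105 cells.

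The remaining members were near the limit of detection. For *MAGEA9* there were 0 UMIs without DAC and 35 UMIs in 32 cells with DAC, or 1.83% (1.25 to 2.57), at least 9.86-fold higher. Its near-identical copy *MAGEA9B* had 0 and 49 UMIs, and since 77.5% of the 90-base stretches at their transcript ends are shared, their UMIs are uncertain. *MAGEA2B* had 5 and 13 UMIs, a ratio of 2.20 (0.735 to 7.87), and *MAGEA2* had 6 and 7 UMIs, a ratio of 0.99 (0.284 to 3.55). The transcript ends of *MAGEA2* and *MAGEA2B* were identical over 400 bases, so reads from these ends do not tell them apart and their counts are uncertain. How many reads were dropped or misassigned was not tested. In the order of UMI counts with DAC, from *MAGEA4* through *MAGEA3*, *MAGEA12*, *MAGEA6*, *MAGEA1*, *MAGEA10*, and *MAGEA11* to *MAGEA9*, no neighbors had overlapping counting intervals. Such intervals leave out the spread among cells. The places of *MAGEA3*, *MAGEA6*, and *MAGEA9* in this order of counts carry the uncertainty given above, and *MAGEA2* and *MAGEA2B* were not placed in it. As 1 molecule gives 1 UMI in this 3′ assay whatever the length of the transcript, counts were compared without a length correction.

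**Figure D2:**
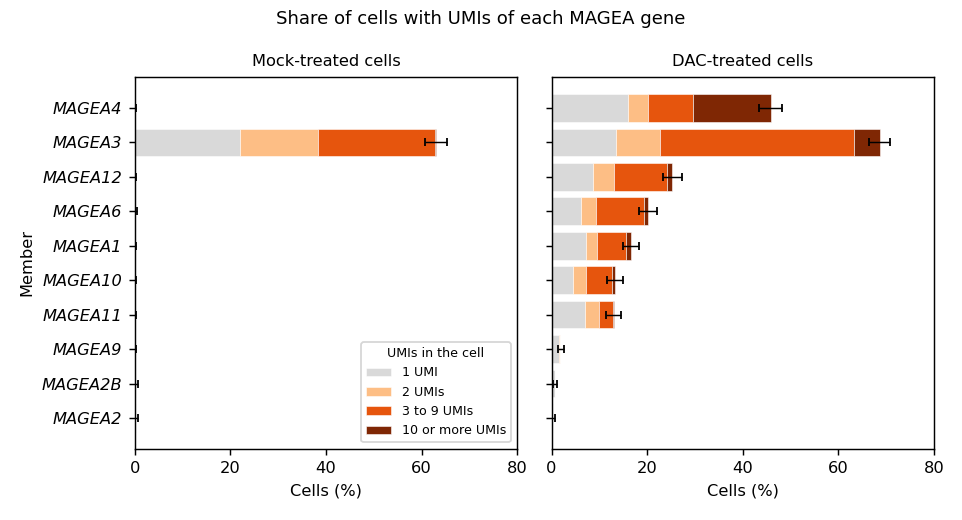
Cells (%) of the mock-treated (left) and the DAC-treated library (right) with UMIs of each member, with stacked colors for 1, 2, 3 to 9, and 10 or more UMIs in the cell and bars for the exact 95% interval of the share with any UMI. *MAGEA3* is the one member with a visible bar without DAC (63.1%), and with DAC *MAGEA4* has the widest segment of 10 UMIs or more (284 cells).

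*MAGEA1*, *MAGEA4*, *MAGEA6*, *MAGEA10*, *MAGEA11*, and *MAGEA12* were concentrated in fewer cells than an even spread would give. If the 8160 UMIs of *MAGEA4* were spread over DAC-treated cells in proportion to their total UMIs, 1381 cells would hold at least 1, and 802 did (0.581 of that number). The same ratio was 0.607 for *MAGEA11*, 0.521 for *MAGEA12*, 0.450 for *MAGEA6*, 0.432 for *MAGEA1*, and 0.425 for *MAGEA10*. Of the 7 members with 100 UMIs or more, 6 were at or below 0.75, against 4.5% of 12525 genes with that many UMIs, whose median was 0.925. *MAGEA3* was close to that median, at 0.922 with DAC and 0.942 without. With few UMIs, *MAGEA9*, *MAGEA2B*, and *MAGEA2* were at 0.929, 0.928, and 1.00.

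Detection moved with depth. In the lowest, middle, and highest of 3 equal groups of DAC-treated cells by total UMIs (medians 2179, 35344, and 59133), *MAGEA4* was detected in 25.2%, 52.7%, and 59.5% of cells, while its level was 110, 153, and 133 CPM. *MAGEA3* was detected in 20.9%, 87.5%, and 97.6% of the same groups. Nearly every deep cell thus had *MAGEA3*, while many had no *MAGEA4*. At 10000 UMIs per cell, *MAGEA4* was detected in 37.7% of DAC-treated cells, *MAGEA12* in 16.7%, *MAGEA6* in 13.5%, *MAGEA1* in 10.1%, *MAGEA10* in 8.74%, and *MAGEA11* in 5.65%. At this depth any member but *MAGEA3* was detected in 0.144% of mock-treated and 47.1% of DAC-treated cells. In the 319 DAC-treated cells with over 50% mitochondrial UMIs, *MAGEA4* was at 48.9 CPM and *MAGEA3* at 23.0 CPM, against 144 and 104 CPM in cells at 20% or less. The part of free RNA in the detection of members was not tested.

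Members were unevenly spread over DAC-treated cells, which more often had none or many of them than expected. The 9 members without *MAGEA3* were absent from 719 cells, where 459 would be without any if members were independent within 10 groups of cells of similar depth. A single one of the 9 was detected in 467 cells (563 expected), and 2 were detected in 201 cells (439 expected). At the other end, 140 cells (7.995%) had 5 or more of the 9, against 11.02 expected, a ratio of 12.7 (10.7 to 14.997). The size of the excess depended on this cut, which was chosen after seeing the data. For 3 or more and 4 or more of the 9, the ratio was 1.26 (1.13 to 1.39) and 3.08 (2.69 to 3.51). For 5 or more of all 10 members it was 3.20 (2.79 to 3.64). The ratio for 5 or more of the 9 also depended on the processing. It was lowest, at 4.71 (3.96 to 5.55), in groups of cells by detected genes off chromosome X. The highest value was 179 when cells were thinned to 5000 UMIs, with a wide interval of 65.7 to 390. Cells with 2 or more of the 9 were fewer than expected, at 565 against 729, a ratio of 0.775 (0.713 to 0.842). This value was not recomputed under alternatives, but for 2 or more of all 10 members the ratio was 0.803 and became 1.01 when cells were thinned to 5000 UMIs, without a shortfall. The highest number in a cell was 7, seen in 6 cells. More cells than expected thus had none of the 9 or many, and fewer had 1 to 3. In mock-treated cells, 14 cells had any of the 9, and each of those had exactly 1.

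**Figure D3:**
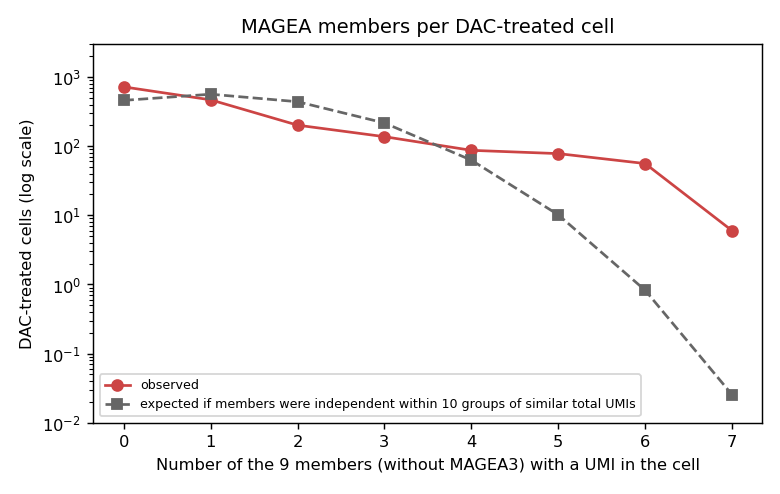
Number of DAC-treated cells (log scale) by how many of the 9 members without *MAGEA3* had a UMI in the cell, observed and expected if members were independent within 10 groups of similar depth. Observed cells are above the expected number at 0 and from 4 to 7, and below it at 1 to 3.

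Among the 6 members with few or no UMIs in mock-treated cells and detection in at least 5% of DAC-treated cells, each of the 15 pairs was found together more often than expected within the 10 groups of similar total UMIs. The ratio of observed to expected cells ran from 1.42 for *MAGEA4* and *MAGEA12* (339 cells, 238 expected) to 2.85 (2.33 to 3.45) for *MAGEA10* and *MAGEA11* (104 cells, 36.5 expected). The pair with the highest ratio lies 2416 kb apart. *MAGEA6* and *MAGEA12*, whose genes lie 28.5 kb apart, shared 236 cells (114 expected), a ratio of 2.08 (1.82 to 2.36), and 67.0% of cells with *MAGEA6* had *MAGEA12*. *MAGEA4* was detected in 87.5% of cells with *MAGEA10*. Its ratios, from 1.42 to 1.67, were lower than those of pairs of less frequent members, and a gene found in many cells has less room for a high ratio.

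**Figure D4:**
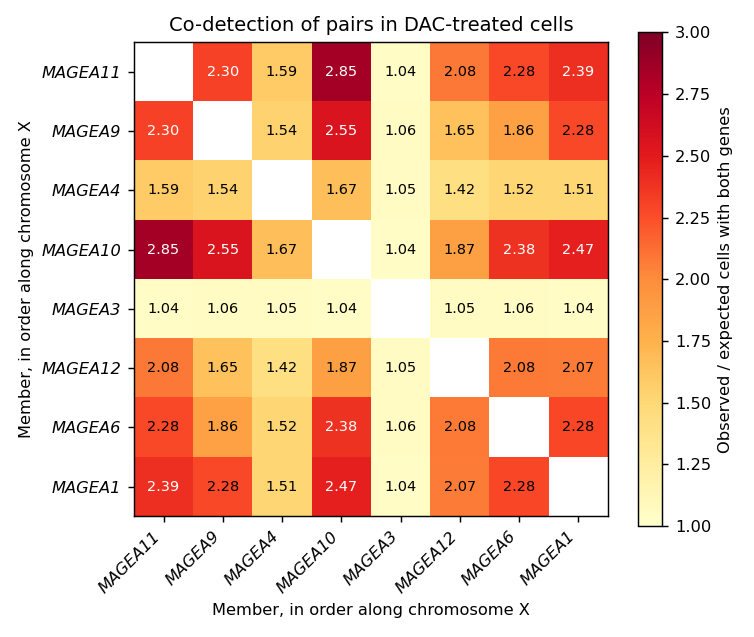
Observed over expected DAC-treated cells with both genes of a pair, for 8 members in order along chromosome X on both axes, with expected cells from 10 groups of similar depth and darker color for a higher ratio. Pairs without *MAGEA3* lie between 1.42 and 2.85, and pairs of *MAGEA3* with another member shown lie between 1.04 and 1.06.

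The ratios of *MAGEA3* with *MAGEA1*, *MAGEA4*, *MAGEA6*, *MAGEA9*, *MAGEA10*, *MAGEA11*, and *MAGEA12* were 1.04 to 1.06, with intervals that all included 1. As *MAGEA3* was detected in nearly all deep cells, its ratio could hardly exceed 1. The ratio therefore cannot show whether *MAGEA3* followed the others, and its level was also compared. *MAGEA3* was at 105 CPM in the 290 cells with *MAGEA1* and at 87.1 CPM in the 1461 cells without it. By contrast, *MAGEA6* was at 58.4 and 11.2 CPM and *MAGEA12* at 63.4 and 14.1 CPM in the same groups. Between cells with and without *MAGEA4*, which had medians of 42226.5 and 24218 UMIs, *MAGEA10* was at 20.9 and 1.70 CPM, *MAGEA6* at 34.0 and 5.83 CPM, and *MAGEA3* at 96.1 and 84.9 CPM. Cells with and without *MAGEA3* differed far more in depth, with medians of 45158 and 2745 UMIs. In them *MAGEA4* was at 144 and 69.7 CPM, *MAGEA12* at 26.4 and 10.2 CPM, and *MAGEA10* at 12.7 and 10.8 CPM.

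The head-to-head neighbors *MAGEA12* and *CSAG1* shared 314 DAC-treated cells (186 expected), a ratio of 1.69 (1.51 to 1.89), and 71.0% of cells with *MAGEA12* had *CSAG1*. Members farther away had ratios with *CSAG1* not far below this. They were 1.56 (1.37 to 1.78) for *MAGEA6*, 1.56 for *MAGEA1*, 1.54 (1.30 to 1.81) for *MAGEA11* at 3010 kb, 1.42 for *MAGEA10*, and 1.23 for *MAGEA4*. *MAGEA3* and *CSAG1*, both present without DAC, shared 313 mock-treated cells (315 expected) and 515 DAC-treated cells (494 expected).

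Other genes that DAC brought up were also found together, so the pairs of members were set against 265 genes with at most 2 UMIs in mock-treated cells and detection in at least 5% of DAC-treated cells, which include the 6 members. Over their 34980 pairs the median ratio was 1.10, and 26.8% of pairs had at least 25% more cells than expected. The 15 member pairs had a median of 2.08, and all 15 had at least 25% more. Pairs without a member had a median of 1.66 within 1 Mb on the same chromosome, 1.32 farther apart on the same chromosome, and 1.09 on different chromosomes. Of 406 pairs without a member whose genes both lie on chromosome X, 96.3% had at least 25% more, with a median of 1.74. The 174 pairs of a member with another gene of chromosome X had a median of 1.66. Most pairs of these X-linked genes outside the family thus had a high ratio as well. When cells were instead grouped by how many genes off chromosome X they had, a grouping chosen after seeing the data, all pairs had a median of 1.00, the member pairs 1.78, and X-linked pairs without a member 1.41. Pairs share genes and cells and come from 1 library, so these values are a description.

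**Figure D5:**
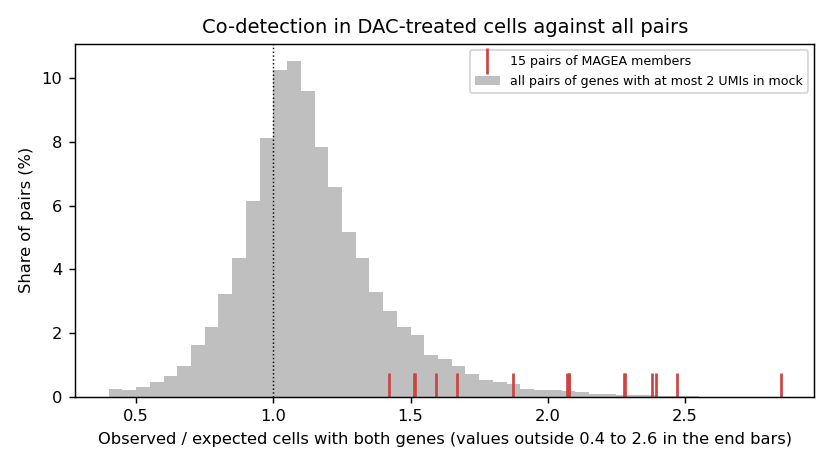
Share of pairs (%) by observed over expected DAC-treated cells with both genes, for all pairs of the 265 genes (gray bars), with red ticks for the 15 member pairs and a dotted line at 1. All 15 ticks, from 1.42 to 2.85, lie to the right of the median of all pairs, 1.10.

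The genes whose residual counts per cell were most correlated with a member over the DAC-treated cells included other members and further cancer-testis genes of chromosome X. For *MAGEA4* they were *FMR1NB* (r = 0.54), *MAGEA10* (0.48), and *MAGEA6* (0.47) among 16340 genes. For *MAGEA6* and *MAGEA12* each was the other's nearest gene (0.48), followed in both lists by another member and by the cancer-testis antigen gene *CTAG2*. *PNMA5*, of the paraneoplastic Ma antigen family, was nearest to *MAGEA1* (0.48). The lists of *MAGEA3* and *MAGEA9* held no member among the 3 nearest genes. The nearest genes of *MAGEA9*, detected in 32 cells, were *DNAH2* (0.47), *LINC00882* (0.41), and *HOXD-AS2* (0.39), and its nearest member, *MAGEA4*, stood at rank 70 (0.11). For *MAGEA3* the nearest genes were *CLTA*, which encodes a clathrin light chain (0.37), *BUD23* (0.36), and *DCUN1D5* (0.35), and *MAGEA12*, the nearest member, stood at rank 77 (0.25).

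Genes next to the family on the chromosome moved in part. Of 27 genes listed as neighbors in Xq28, 20 had enough UMIs, 8 were at least 4-fold higher (12.5% of all genes tested) and none was at most 0.25-fold (1.51%), with a median log2 ratio of 1.18 (0.30 over all genes). *PNMA5* went from 2 to 3400 UMIs, a ratio of 1437 (398 to 11871), and *PASD1*, another cancer-testis gene, from 0 to 385, at least 108-fold higher. The chromatin protein gene *HMGB3* was 2.56-fold higher and the centrin gene *CETN2* 1.55-fold, while *CD99L2* was at 0.867-fold. Both other *MAGEA* genes in the tables were 4-fold higher or more, with *MAGEA8* going from 0 to 66 UMIs in 54 cells.

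Other MAGE genes fell into groups. Of 11 other type I genes, which are cancer-testis genes as well, 6 had enough UMIs and 5 of them were at least 4-fold higher, against 12.5% of all genes tested. *MAGEC2*, whose protein also binds TRIM28, went from 0 to 517 UMIs, *MAGEB6* from 0 to 303, and *MAGEB1* from 129 to 1005. *MAGEB2* resembled *MAGEA3*, with 3317 UMIs already in mock-treated cells, 6568 in DAC-treated cells, and a ratio of 1.67. Of 10 type II genes, most of which are widely expressed, 7 had enough UMIs and 2 were at least 4-fold higher, against the same 12.5%, among them the imprinted gene *NDN*, from 0 to 169 UMIs. *MAGED2* was at 1.18-fold and *MAGED1* at 0.538-fold.

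Genes whose products work with MAGE-A proteins moved little as a list. Of 11 partners and substrates, 10 had enough UMIs, 1 was at least 4-fold higher, none was at most 0.25-fold, and the median log2 ratio was 0.07, against 12.5%, 1.51%, and 0.30 for all genes tested. *TRIM28* went from 7785 to 14097 UMIs, a ratio of 1.53. *PRKAA1*, the AMPK subunit that MAGE-A3 or MAGE-A6 with TRIM28 targets for degradation, was at 0.908-fold. The gene past 4-fold was *FBP1*, a gluconeogenesis enzyme, from 6 to 112 UMIs. Among 11 regulators of these promoters, with the same 12.5% as background, the one past 4-fold was *CTCFL*, the testis paralog of *CTCF* also known as BORIS, from 2 to 939 UMIs in 463 cells, a ratio of 397 (110 to 3282). The maintenance methylation genes *DNMT1* and *UHRF1* were 1.88-fold and 2.72-fold higher. Of 10 genes of MHC class I antigen presentation, the immunoproteasome subunit *PSMB8* went from 16 to 417 UMIs and was the one past 4-fold, while *B2M*, the light chain of class I molecules, was at 1.16-fold.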

How the data were processed

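HCT116 cells, mock-treated or DAC-treated, were analyzed by droplet-based 3′ scRNA-seq, with 1 library per condition. The authors used Cell Ranger with hg38, and the deposited values are raw UMI counts (whole numbers) for each gene in each cell. The annotation release, read length, and cell filters are not given in the sources used here. All 1783 and 1751 deposited cells were used, 12 barcodes occurred in both libraries, and 24 gene names were repeated. Doublets were not called, and a filter on the 5% of cells highest in UMIs was tried instead.

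Values were computed using scipy 1.17.1, pandas 2.3.3, and numpy 2.4.6 under Python 3.11.15, with figures from matplotlib 3.10.9, and scripts were tested on simulated data. UMIs were summed per library and scaled to its total. Ratios had exact conditional binomial intervals, sums exact Poisson intervals, and shares Clopper-Pearson intervals. Against 0 UMIs, ratios were computed against 3 counts over the library and given as lower bounds. Expected co-detection was summed over 10 groups of cells by total UMIs. Correlations used Pearson residuals of genes detected in at least 1% of DAC-treated cells. Positions came from GENCODE 44 and promoter windows from RefSeq. With 1 library per condition, no test was made.

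All members were named, with genes of the lists by their known roles and the 3 nearest genes of a member. Members, gene lists, and neighbors were chosen with earlier results of these data known. Some genes of the lists are counted but not reported here by name. Alternatives were scaling, detection at 2 or 3 UMIs, thinning, filters on cells, and depth grouping. Grouping by genes off chromosome X, and leaving out *MAGEA3*, were added after seeing the data.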

Additional observations from a re-analysis of the deposited data

Results flagged for a closer look

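*MAGEA4-AS1*, a gene annotated antisense to *MAGEA4* and overlapping its start (chromosome X, 151904431 to 151913968, minus strand), is not a member but gave a signal, with 0 UMIs without DAC and 228 UMIs in 166 cells, or 9.48%, with DAC. With *MAGEA4* it was found in 150 cells, where 89.0 were expected within 10 groups of cells by total UMIs, and *MAGEA4* was detected in 90.4% of its cells. This ratio of 1.69 (1.43 to 1.98) was not particular to the overlapping pair. The antisense gene had ratios of 2.53 with *MAGEA10*, 2.32 with *MAGEA11*, and 1.92 with *MAGEA1*. With *MAGEA6*, *MAGEA12*, and *MAGEA3* they were 1.85, 1.80, and 1.04. Strand use in the counting is not stated, and how far reads of the overlapping genes were told apart was not tested.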

How the results depend on the processing

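Of 55 values for the family with a counting interval, 26 stayed within it under the alternatives and 29 moved beyond it. Of 210 values for single members, 107 stayed within their interval and 103 moved beyond it. The log2 ratio of *MAGEA2*, whose interval includes 0, was -0.02 and took the other sign with per-cell CPM (1.13) and without the 5% of cells with the most UMIs (0.33), and no other member changed sign. The count of members at least 4-fold higher was 7, and 6 or 7 under the 9 alternatives of scaling, floor, minimum of UMIs, and cell filter for which it was recomputed. The log2 ratio of the family was 2.25 with median-of-ratios scaling and 2.72 from per-cell CPM averaged over cells, against 2.49. With 1 UMI or more required, 79.7% of DAC-treated cells had any of the 10 members, with 13.3 UMIs per positive cell, and 58.9% had any of the 9 without *MAGEA3*. Requiring 2 or 3 UMIs gave a share of DAC-treated cells of 62.8% or 53.9% for the 10 members and 36.6% or 30.7% for the 9 without *MAGEA3*. Thinning to 10000 or 5000 UMIs gave 75.7% or 54.7% and 47.1% or 37.3%, with 4.07 or 2.78 UMIs per positive cell. Without cells over 20% mitochondrial UMIs, the share was 84.3% for the 10 members, with 14.1 UMIs per positive cell. Without cells under 10000 UMIs or over 50% mitochondrial UMIs, the shares were 97.8% and 70.1%, with 16.2 UMIs per positive cell. Without the 5% of cells with the most UMIs, there were 12.4 UMIs per positive cell.

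Cells with 2 or more of the 10 members were 0.803 of the expected number, and 0.713 or 0.741 at 2 or 3 UMIs, 1.01 when thinned to 5000 UMIs, where the shortfall was lost, and 0.749 without depth groups. Cells with 5 or more of the 9 members were 12.7 times the expected number, and 44.7 or 96.3 times at 2 or 3 UMIs. When thinned to 10000 or 5000 UMIs they were 70.9 (45.9 to 105) or 179 (65.7 to 390) times that number, with wide intervals. The ratio was 16.5 without cells over 20% mitochondrial UMIs, 33.7 without depth groups, and 4.71 in groups by genes off chromosome X. The cause of these moves was not tested. No paired analysis was possible because each condition has 1 library. *MAGEA2*, *MAGEA2B*, and *MAGEA9* had few UMIs, and these members, *MAGEA3*, and *MAGEA6* share transcript ends with another gene, whose effect on counts was not tested.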
